A study of Sus scrofa with 15 samples.

Results

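The 39 genes described here were selected on their measured RNA levels in pig embryos made by somatic cell nuclear transfer (SCNT). In the deposited normalized table, the gene entry had a mean of at most 5 in untreated 4-cell embryos (SCNT4c) and of at least 100 in both treated 4-cell groups. In 1 treated group, SCNT4c-KG, the embryos were injected with KDM4A mRNA 5 h after activation and cultured with the inhibitor GSK126 for the first 48 h. In the other, SCNT4c-TDG, the donor nuclei came from a puromycin-selected line of pig fetal fibroblasts (PFF) that carried a doxycycline-inducible TDG vector, and doxycycline was given at 500 ng/ml from 40 to 72 h after activation. Untreated 8-cell embryos (SCNT8c) and PFF of passages 2 to 5 completed the series, with 3 libraries in each of the 5 groups and 30 embryos in each embryo library. All embryo groups had PFF nuclei, so no embryo group here was free of nuclear transfer. Mock injection, and doxycycline without the vector, were not analysed here, so their effects and those of KDM4A, GSK126 and TDG cannot be told apart. The table held 28224 known genes after repeated entries were removed, and 13852 of them met the SCNT4c limit. The 3 groups SCNT4c, SCNT4c-KG and SCNT4c-TDG chose the genes, so their values are a description. PFF and SCNT8c were not used in the choice.

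When a fibroblast nucleus is placed in an egg, the embryo first runs on RNA stored in the egg and then starts transcription from its own genome, a step called embryonic genome activation. Chromatin marks inherited from the donor cell can keep genes closed at that step. KDM4A removes methyl groups from lysine 9 of histone H3, GSK126 blocks EZH2, which methylates lysine 27 of the same histone, and TDG cuts oxidised forms of methylated cytosine out of DNA, which lets the unmethylated base be put back. The cytosine that TDG deals with stands mostly in CG dinucleotides, which are dense at the start of many genes.

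The 250 bases before the annotated start of 4 of the genes are shown here, because CG-rich and CG-free starts both occur in the set, where they hold 0 to 42 CG dinucleotides. The reference is RefSeq Sscrofa11.1, the strand is that of the gene, and CG dinucleotides are in capitals. GATA6 (chr6:107282459-107282708, plus strand) held 21 of them, PHLDA2 (chr2:2058676-2058925, minus strand) 32, ACADM (chr6:137575545-137575794, minus strand) 23 and PTGFR (chr6:134777068-134777317, minus strand) 0.
GATA6: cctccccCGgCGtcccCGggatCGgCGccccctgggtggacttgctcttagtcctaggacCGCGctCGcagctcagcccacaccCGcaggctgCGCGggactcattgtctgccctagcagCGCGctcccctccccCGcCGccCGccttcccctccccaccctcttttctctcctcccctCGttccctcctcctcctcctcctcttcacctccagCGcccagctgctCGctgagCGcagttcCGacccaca
PHLDA2: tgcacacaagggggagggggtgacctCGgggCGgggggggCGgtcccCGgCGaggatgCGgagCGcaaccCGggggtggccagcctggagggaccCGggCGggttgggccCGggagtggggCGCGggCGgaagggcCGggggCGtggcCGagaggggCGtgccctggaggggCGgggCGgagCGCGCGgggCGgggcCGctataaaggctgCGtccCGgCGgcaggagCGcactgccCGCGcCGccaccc
ACADM: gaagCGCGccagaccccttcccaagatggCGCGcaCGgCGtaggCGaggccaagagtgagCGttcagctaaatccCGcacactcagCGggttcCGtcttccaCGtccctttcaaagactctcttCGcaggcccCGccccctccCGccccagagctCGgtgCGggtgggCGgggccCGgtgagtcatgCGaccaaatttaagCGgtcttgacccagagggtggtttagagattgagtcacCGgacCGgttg
PTGFR: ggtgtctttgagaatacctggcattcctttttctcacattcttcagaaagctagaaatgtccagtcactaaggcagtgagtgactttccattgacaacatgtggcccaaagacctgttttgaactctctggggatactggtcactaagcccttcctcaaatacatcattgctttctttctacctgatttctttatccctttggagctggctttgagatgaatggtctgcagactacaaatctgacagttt
GATA6 and PTGFR lie on the same chromosome and met the same limits with starts of opposite CG content. Over all 39 genes, the median number of CG dinucleotides in this window was 17, against 12 over 19542 protein-coding genes of the annotation. The ratio of observed to expected CG dinucleotides was at least 0.6 at 28 of 39 starts (71.8%) and at 51.4% of the protein-coding starts, a motif count on both strands alike since CG is its own reverse complement. The 39 genes had to reach a minimum level in both treated groups, while the protein-coding genes were taken whether expressed here or not. The starts of other genes at such levels were not compared, so nothing about the 39 genes is read from these differences. Starts are as annotated and were not located in these libraries.

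Reads recovered from the table ranged from 12354649 to 15390472 in SCNT4c-KG and from 17757929 to 22868038 in the other 12 libraries. A single read was worth 1.27 to 1.63 normalized units in SCNT4c-KG, 0.765 to 0.836 in SCNT4c-TDG and 0.789 to 0.874 in SCNT4c. A mean near 5 in SCNT4c thus stood for 18 reads over the 3 libraries together, and a count of 0 in all 3 allows a mean of up to 0.831 (3 reads over the group). These limits cover counting error only, since the cDNA was amplified without molecular identifiers. The labels conflict on which 4-cell samples are untreated, since the table's names for the SCNT4c columns recur as descriptions of samples titled as SCNT4c-KG. Columns were assigned by the titles, and every low SCNT4c and high SCNT4c-KG value rests on that. The targeted genes went with the titles, with TDG at 55575 ± 5177 in SCNT4c-TDG against 1713 ± 802 in SCNT4c, and KDM4A at 1448 ± 24.9 in SCNT4c-KG against 194 ± 103 (SD, n = 3). KDM4A was also at 775 ± 194 in SCNT4c-TDG, and TDG at 4366 ± 436 in SCNT4c-KG. EZH2, whose product GSK126 inhibits, was at 333 ± 16.5 in SCNT4c, 1062 ± 168 in SCNT4c-KG and 1124 ± 122 in SCNT4c-TDG. Of 10 fibroblast markers, 10 reached a mean of 10 in PFF, 8 in SCNT4c, 7 in SCNT4c-KG and 6 in SCNT4c-TDG. Their summed level was 3510 to 4679 in SCNT4c, 1178 to 2039 in SCNT4c-KG and 818 to 1039 in SCNT4c-TDG, lower in the treated groups, where the 39 genes were higher. It was also lower than in SCNT4c in SCNT8c, at 1588 to 1755, where the 39 gene entries were low. Of 10 oocyte and early embryo markers, 7 had a mean of at least 10 in each of the 4 embryo groups, with GDF9 and BMP15 under 1 in all of them, and the summed level was 186588 to 208581 in SCNT4c, 57600 to 96144 in SCNT4c-KG, 28025 to 30707 in SCNT4c-TDG and 51354 to 133569 in SCNT8c. Of the 9 cumulus and granulosa markers in the table, 3 reached a mean of 10 in SCNT4c (CYP11A1, CYP19A1 and TNFAIP6), 1 in SCNT4c-KG and in SCNT4c-TDG (TNFAIP6) and 3 in SCNT8c (CYP19A1, FSHR and TNFAIP6), with AMH, FOXL2 and PTX3 under 1 in each embryo group. Their summed level was 86.5 to 236 in SCNT4c, 106 to 222 in SCNT4c-KG, 16.1 to 60.2 in SCNT4c-TDG and 14.96 to 108 in SCNT8c. The part of other cell types in the results was not tested. The libraries hold pools of embryos, in which fewer cells that express a gene and less RNA per cell cannot be told apart.

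The 39 genes stood at low values in SCNT4c and well apart from them in nearly every treated library. Behind the SCNT4c values were 0 to 18 reads a gene over the 3 libraries, with a median of 9, and GATA6, DUSP11 and UFC1 had no read there. Relative to the limit that 0 reads allow, GATA6 was at least 337-fold higher in SCNT4c-KG and at least 418-fold higher in SCNT4c-TDG, DUSP11 at least 205-fold and 202-fold, and UFC1 at least 134-fold and 135-fold. These bounds are for the gene entry alone. With the transcripts assembled at its locus added, as described below, DUSP11 was at 64.5 in SCNT4c, 272 in SCNT4c-KG and 345 in SCNT4c-TDG, a far smaller rise. The sums for GATA6 and UFC1 stayed at 0 in SCNT4c. For 38 of the 39 genes, all 6 treated libraries lay above all 3 SCNT4c libraries. The exception was PROKR2, at 194, 0 and 154 in the SCNT4c-KG libraries. For 24 genes all 6 treated libraries reached 100, for 10 genes 5 did, for 2 genes (ATP5G3 and CCDC58) 4, and for 3 genes (NECTIN2, PRAP1 and UFC1) 3. Of the 13852 known genes at or under the SCNT4c limit, 105 (0.758%) reached 100 in SCNT4c-KG and 68 (0.491%) in SCNT4c-TDG, and the 39 are 37.1% of the first list and 57.4% of the second. Both lists share the SCNT4c libraries and the rule fixed these shares, so nothing is read from them.

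**Figure D1:**
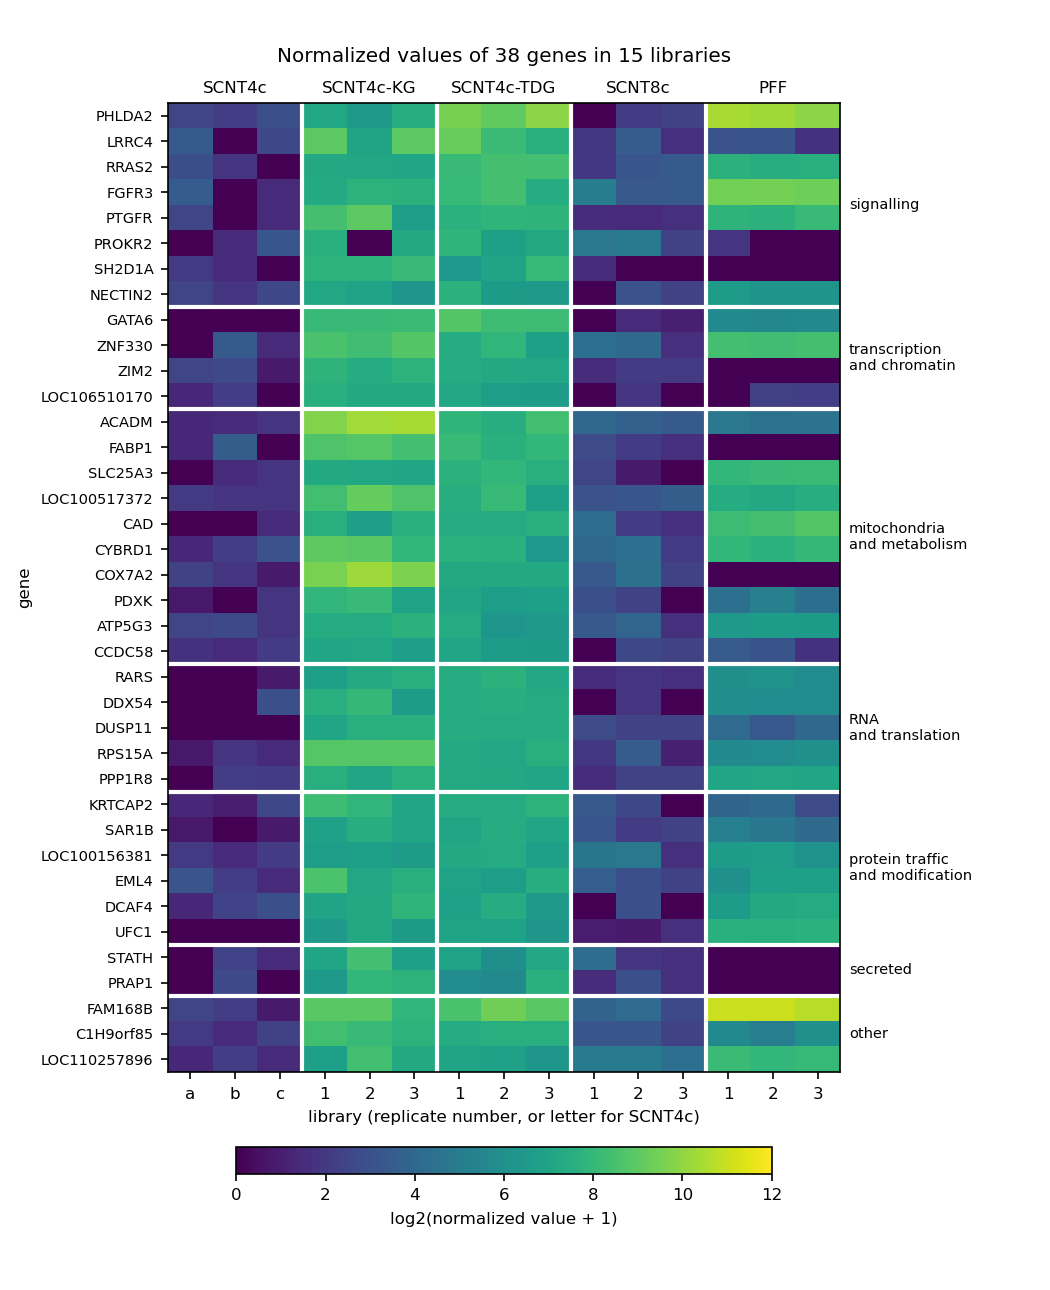
Normalized value, as log2(value + 1), of 38 of the 39 genes (rows, grouped by role) in each of the 15 libraries (columns, 3 in each group). The 6 treated libraries are bright for every gene shown but PROKR2, whose SCNT4c-KG library 2 is at 0, and the SCNT8c libraries are darker than the treated libraries for every other gene.

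The limits cut through a continuous range. Nearest to 5 in SCNT4c were PHLDA2 (mean 4.96) and LRRC4 (4.82) on the inside, and WDR54 (5.13) and VBP1 (5.16) on the outside. Nearest to 100 in SCNT4c-KG were LOC100156381 (101) and UFC1 (112) inside, and CENPC (95.0) and SS18 (89.6) outside. Nearest to 100 in SCNT4c-TDG were PRAP1 (100.5) and CCDC58 (106) inside, and ASS1 (94.0) and SCAPER (88.3) outside. The names near the limits would therefore change with small changes of the values.

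To see how the genes behave in a library that did not choose them, the choice was repeated 9 times on 8 of the 9 libraries, and the left-out library was read. With a SCNT4c-KG library left out, 34 to 35 of 37 to 39 chosen genes (89.5% to 94.6%) had at least 100 in it, against 0.751% to 0.910% of all known genes at or under the SCNT4c limit. With a SCNT4c-TDG library left out, the share was 94.1%, 87.2% and 74.4% for libraries 1, 2 and 3, against 0.419% to 0.541% of those genes. With a SCNT4c library left out, 67.4% to 72.1% of 43 or 44 chosen genes had at most 5 in it, against 0.877% to 1.42% of 5131 known genes with a mean of at least 100 in both treated groups. The genes were chosen on other libraries of the same group and the background genes were not, so nothing is read from the gap between them, and no test was run on these shares.

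**Figure D2:**
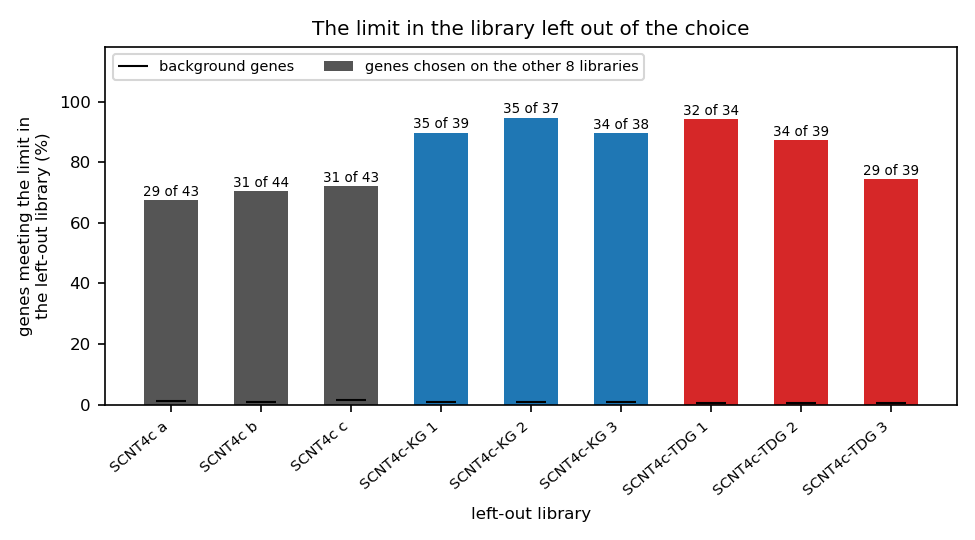
Share (%) of genes chosen on 8 libraries that met the same limit in the left-out library, at most 5 for SCNT4c and at least 100 for SCNT4c-KG and SCNT4c-TDG, with their counts above the bars. Bars reach 67.4% to 94.6%, while the black marks, the share of background genes meeting the same limit, stay at or under 1.42%.

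The question left by the choice is where else these genes were expressed. In PFF, which gave the nuclei, the 39 genes spanned the whole range, with 14 genes (35.9%) at a mean of at least 100, 17 between 5 and 100, and 8 (20.5%) at 5 or less. Of all known genes at or under the SCNT4c limit, 5.34% had a PFF mean of at least 100 and 81.1% one of 5 or less. The share was 10.6% of the 66 genes that reached 100 in SCNT4c-KG but not in SCNT4c-TDG, and 34.5% of the 29 genes that reached it in SCNT4c-TDG but not in SCNT4c-KG. For 7 genes the PFF mean was above both treated means, and for 27 genes it was below both. In SCNT8c, none of the 39 gene entries reached 100, with 22 (56.4%) at 5 or less and a highest mean of 26.9 (LOC110257896). With the transcripts assembled at the same locus added, as described below, several loci did exceed 100 in SCNT8c. Among them were LRRC4 (2585), ZIM2 (1727), DCAF4 (933) and RPS15A (455). None of the 13852 known genes at or under the SCNT4c limit reached 100 in SCNT8c either (highest mean 96.4), while 90.8% of them were at 5 or less. At 5 or less in SCNT8c were also 72.7% of the genes that reached 100 in SCNT4c-KG alone and 65.5% of those that reached it in SCNT4c-TDG alone. The median SCNT8c mean was 4.66 over the 39 genes and 0 over the 13852.

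The comparison of SCNT8c with PFF was tested with limma on log2(value + 1) over 18448 features with a mean of at least 10 in the 6 libraries, and a gene was called when its adjusted p was under 0.05 and its fold above 2. Of the 39 genes, 28 were tested, 26 were lower in SCNT8c, 1 (PROKR2) was higher and 1 (ACADM) did not pass. Over all features tested, 36.8% were lower in SCNT8c and 33.7% higher. The other 11 genes had a mean under 10 and were not tested. Only 8 of the 28 tested genes reached a mean of 10 in SCNT8c, so most were tested because PFF was high and had to be lower in SCNT8c, and the count is no evidence of direction. With all features above 0 tested, which covers all 39 genes, 26 were lower and 6 higher in SCNT8c, against 25.5% lower and 22.4% higher of 31723 features. The 6 were PROKR2, COX7A2, FABP1, ZIM2, STATH and PRAP1, and all but PROKR2 were listed at 0 in all 3 PFF libraries. In that fit the median log2 fold change was -3.56 over the 39 genes and 0.32 over all features. Of the 13852 known genes at or under the SCNT4c limit, 90.8% were at 5 or less in SCNT8c, so low SCNT8c values came with that limit. All features were not held to it, so nothing is read from these counts and medians. With every library scaled to the same total, the median over all features with a mean of at least 10 moved from -0.15 to 0.69, and the share of calls that were higher in SCNT8c moved from 47.8% to 57.2% (58.6% by edgeR). The tested genes kept their sign in each of these scalings. A fit with the replicate number as a replicate block also called 26 lower and 1 higher. The methods say in general that experiments were repeated, but nothing ties the 3 libraries of a group to separate cultures or embryo batches, so the p-values measure only the spread between these libraries, which may be technical. Values on the log2(value + 1) scale understate the change of low genes.

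**Figure D3:**
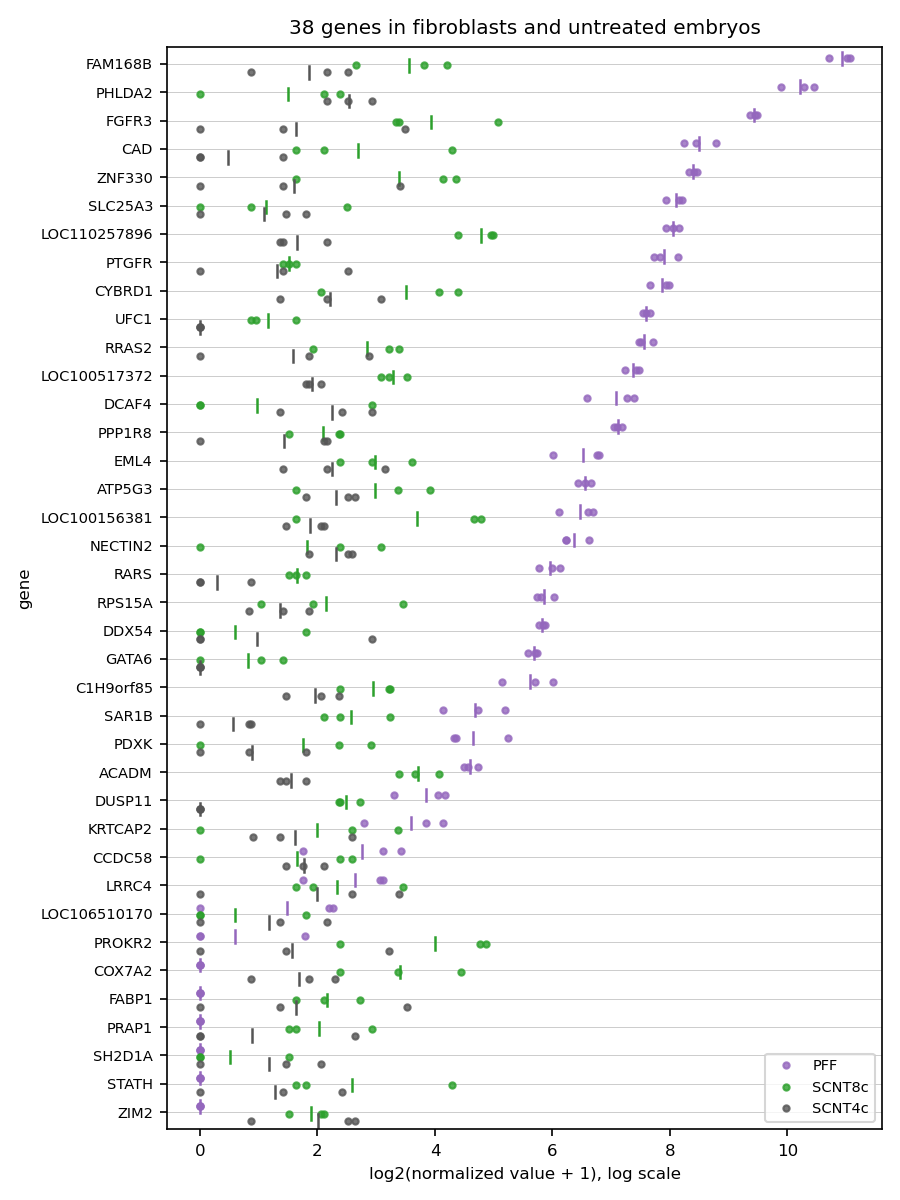
Log2(normalized value + 1) of 38 of the 39 genes in PFF (purple), SCNT8c (green) and SCNT4c (grey), ordered by PFF mean, with a point for each of 3 libraries and a tick for the group mean of the log2 values. PFF points lie to the right of both embryo groups for the upper 27 genes, down to DUSP11, while 6 genes at the bottom have all 3 PFF points at 0.

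Receptors and other signalling proteins made up 8 of the 39 genes. Here and below, values are normalized levels in libraries 1, 2 and 3 (a, b and c for SCNT4c), and each log2 fold change is SCNT8c minus PFF from limma. All are for the gene entry alone, and sums over the locus, given further below, went the other way for some genes. PHLDA2, an imprinted gene whose protein restrains growth of the placenta, gave 4.73, 3.50 and 6.64 in SCNT4c, 140.5, 90.1 and 177 in SCNT4c-KG and 746, 543 and 966 in SCNT4c-TDG. It was at 1400.0, 1243 and 951 in PFF and at 0, 3.33 and 4.23 in SCNT8c (log2 fold change -8.71 ± 0.69 (SE), adjusted p = 9.84e-05). The PHLDA2 libraries were thus highest in PFF, then SCNT4c-TDG, then SCNT4c-KG, with 1 SCNT4c-TDG library above the lowest PFF library. FGFR3, a receptor for fibroblast growth factors, was at 162, 217 and 205 in SCNT4c-KG and 262, 352 and 171 in SCNT4c-TDG, below its 698, 712 and 656 in PFF, and at 32.7, 9.14 and 9.51 in SCNT8c (log2 fold change -5.49 ± 0.54 (SE), adjusted p = 0.00022). PTGFR, the receptor for prostaglandin F2 alpha, was at 348, 504 and 105 in SCNT4c-KG, 204, 230.1 and 225 in SCNT4c-TDG and 226, 210.1 and 281 in PFF. These 3 groups overlapped for PTGFR, while SCNT8c stood at 1.87, 1.66 and 2.11 (log2 fold change -6.37 ± 0.37 (SE), adjusted p = 3.59e-05). RRAS2, a small GTPase of the Ras family, had 150.3, 145 and 137 in SCNT4c-KG and 283, 348 and 344 in SCNT4c-TDG, and its PFF level of 208, 176 and 181 lay between them. NECTIN2, an adhesion protein of cell junctions, was lower, at 139, 119 and 78.4 in SCNT4c-KG and 207, 91.3 and 89.5 in SCNT4c-TDG, with 3 of the 6 libraries under 100. RRAS2 (log2 fold change -4.71 ± 0.50 (SE), adjusted p = 0.000298) and NECTIN2 (log2 fold change -4.54 ± 0.84 (SE), adjusted p = 0.00311) were lower in SCNT8c than in PFF.

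The remaining 3 signalling genes were near 0 in PFF. LRRC4, an adhesion protein of synapses, varied widely, at 495, 127 and 507 in SCNT4c-KG and 585, 289 and 188 in SCNT4c-TDG, against 7.33, 7.64 and 2.38 in PFF. SH2D1A, an adaptor of lymphocyte receptors, was at 214, 218 and 276 in SCNT4c-KG, 84.5, 129.6 and 262 in SCNT4c-TDG and 0 in all 3 PFF libraries. PROKR2, a receptor for prokineticins, was at 231, 113 and 158 in SCNT4c-TDG and at 26.1, 28.3 and 4.23 in SCNT8c, with 2.44, 0 and 0 in PFF (log2 fold change 3.41 ± 0.93 (SE), adjusted p = 0.0157). With its SCNT4c-KG library 2 at 0 and the other 2 at 194 and 154, the PROKR2 mean in that group describes no single library. The PROKR2 call was lost in a fit of all 15 libraries (limma adjusted p = 0.06) and without PFF library 2 or 3 (limma adjusted p = 0.0587 and 0.0596), and without SCNT8c library 1 or 2 the gene fell under the minimum mean.

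Among 5 genes of transcription and chromatin, GATA6 was higher in both treated groups than in the donor cells, and higher in SCNT4c-TDG than in SCNT4c-KG. GATA6, a transcription factor of the hypoblast and of later endoderm, had 0 in all 3 SCNT4c libraries, 276, 272 and 294 in SCNT4c-KG and 437, 304 and 301 in SCNT4c-TDG. PFF had 52.5, 47.1 and 51.2 and SCNT8c 0, 1.66 and 1.06 (log2 fold change -4.86 ± 0.54 (SE), adjusted p = 0.000342). ZNF330, a zinc finger gene, was instead as high in PFF (338, 318 and 350.4) as in SCNT4c-KG (376, 321 and 447), lower in SCNT4c-TDG (171, 234 and 112) and at 19.6, 16.6 and 2.11 in SCNT8c (log2 fold change -5.01 ± 0.77 (SE), adjusted p = 0.00133). ZIM2, an imprinted zinc finger gene, had no read in PFF and stood at 225, 171 and 218 in SCNT4c-KG and 171, 150.4 and 148 in SCNT4c-TDG. LOC106510170, annotated as a histone H2A type 2-C, was at 189, 154 and 155 in SCNT4c-KG and 144, 100.5 and 97.9 in SCNT4c-TDG and at no more than 3.82 in PFF. It has a near copy close by on the same chromosome, so its reads are uncertain.

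Mitochondrial and metabolic genes were the largest group, with 10 members, among them COX7A2 and ACADM, the pair with the highest SCNT4c-KG levels per kilobase of exon. ACADM, the medium-chain dehydrogenase of fatty acid oxidation, was at 1.58, 1.75 and 2.49 in SCNT4c, 843, 1280.5 and 1315 in SCNT4c-KG and 232, 175 and 332 in SCNT4c-TDG. Its PFF level was only 25.7, 21.7 and 22.6, and its SCNT8c level 15.9, 11.6 and 9.51 (log2 fold change -0.89 ± 0.41 (SE), adjusted p = 0.0915), so the SCNT4c-KG libraries stood far above every other group. ACADM passed as lower in SCNT8c in a limma fit of quantile-normalized values (log2 fold change -1.27, adjusted p = 0.0264), and also when SCNT8c library 1 was dropped (-1.07, adjusted p = 0.0497), and over all its alternatives the adjusted p ranged from 0.0264 to 0.643. COX7A2, a subunit of cytochrome c oxidase, was at 766, 1212 and 782 in SCNT4c-KG, 157, 155 and 156 in SCNT4c-TDG and 9.34, 20.8 and 4.23 in SCNT8c, and is listed at 0 in all 3 PFF libraries. Every respiring cell uses this subunit, so the listed 0 in PFF is given as the table has it. ATP5G3, a ring subunit of ATP synthase, was closer between groups, at 172, 166 and 205 in SCNT4c-KG, 166, 78.2 and 88.8 in SCNT4c-TDG and 85.5, 99.3 and 93.0 in PFF (log2 fold change -3.57 ± 0.65 (SE), adjusted p = 0.00293). SLC25A3, the mitochondrial phosphate carrier, was at 154, 145 and 133 in SCNT4c-KG, 206, 243 and 185 in SCNT4c-TDG and 244, 283 and 293 in PFF (log2 fold change -6.97 ± 0.69 (SE), adjusted p = 0.00022). CCDC58, a mitochondrial coiled-coil protein, was near the limits, at 132, 141 and 103 and 132, 94.4 and 91.1 in the treated groups, and under 10 in every PFF library.

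Of the other metabolic genes, FABP1 was the one with no read in PFF. FABP1, a carrier of fatty acids in liver and gut, stood at 412, 462 and 335 in SCNT4c-KG and 283, 193 and 244 in SCNT4c-TDG. SCNT4c library b held 10.5 of it, so FABP1 passed the SCNT4c limit by its mean and not in each library. CAD, which starts pyrimidine synthesis, was at 183, 102 and 192 in SCNT4c-KG, 165, 168 and 184 in SCNT4c-TDG and 303, 346 and 439 in PFF (log2 fold change -5.81 ± 0.74 (SE), adjusted p = 0.000609). PDXK, the kinase of vitamin B6, was at 237, 269 and 124 in SCNT4c-KG, 133, 103 and 109 in SCNT4c-TDG and 19.5, 36.9 and 19.1 in PFF (log2 fold change -2.88 ± 0.86 (SE), adjusted p = 0.0221), and its call was lost by edgeR (adjusted p = 0.12), by DESeq2 (adjusted p = 0.0605), and by limma with the same total in each library (adjusted p = 0.0598), with a pseudocount of 0.1 (adjusted p = 0.0728) and without PFF library 1 or 3 (limma adjusted p = 0.0591 and 0.059). PFF was above both treated groups for CAD and below both for PDXK. CYBRD1, a ferric reductase, was at 518, 479.7 and 248 in SCNT4c-KG, 199, 198 and 84.2 in SCNT4c-TDG and 243, 203 and 253 in PFF (log2 fold change -4.35 ± 0.67 (SE), adjusted p = 0.00138). LOC100517372, annotated as cytochrome b561 domain-containing protein 2, was at 327, 579.9 and 419 in SCNT4c-KG, 179, 276 and 112 in SCNT4c-TDG and 169.8, 149 and 176 in PFF (log2 fold change -4.09 ± 0.36 (SE), adjusted p = 0.000136).

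Genes of RNA handling and translation numbered 5. RPS15A, a protein of the small ribosomal subunit, was even within groups, at 452, 457 and 465 in SCNT4c-KG and 162, 143 and 181 in SCNT4c-TDG, with 52.5, 54.8 and 64.4 in PFF (log2 fold change -3.72 ± 0.68 (SE), adjusted p = 0.00299). A ribosomal protein is used by every cell, and 2 near copies of RPS15A lie elsewhere in the genome, so its low PFF and SCNT4c entries are uncertain. RARS, which loads arginine onto its tRNA, was at 0, 0 and 0.83 in SCNT4c, 109, 159 and 191 in SCNT4c-KG and 171, 209 and 140.0 in SCNT4c-TDG (log2 fold change -4.31 ± 0.40 (SE), adjusted p = 0.000182 for SCNT8c against PFF). DUSP11, a phosphatase that trims the 5′ end of RNAs, was at 131, 184 and 197 in SCNT4c-KG and 169.8, 163 and 171 in SCNT4c-TDG, with 17.1, 8.92 and 15.5 in PFF and 5.60, 4.16 and 4.23 in SCNT8c. RARS and DUSP11 had 1 and 0 reads in SCNT4c, and their libraries overlapped between the treated groups. DDX54, an RNA helicase, was at 186, 253 and 95.5 in SCNT4c-KG and 173, 176 and 166 in SCNT4c-TDG, against 57.4, 56.0 and 53.6 in PFF (log2 fold change -5.22 ± 0.64 (SE), adjusted p = 0.000513). PPP1R8, a nuclear inhibitor of protein phosphatase 1, was at 188, 136 and 202 in SCNT4c-KG, 159.7, 150.4 and 132 in SCNT4c-TDG and 132, 144 and 136 in PFF, 3 groups that overlapped (log2 fold change -5.02 ± 0.43 (SE), adjusted p = 0.000124 for SCNT8c against PFF).

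In protein traffic and modification there were 6 genes, of which UFC1 had no read in SCNT4c. UFC1, the conjugating enzyme for the ubiquitin-like protein UFM1, was at 89.8, 152 and 92.6 in SCNT4c-KG, 129.6, 124 and 81.9 in SCNT4c-TDG, 0.934, 0.831 and 2.11 in SCNT8c and 193, 185 and 200.2 in PFF (log2 fold change -6.44 ± 0.42 (SE), adjusted p = 4.86e-05). LOC100156381, annotated as a ubiquitin-conjugating enzyme E2 B-like gene, was at 101, 109 and 94.0 in SCNT4c-KG, 151, 165 and 109 in SCNT4c-TDG, 24.3, 26.6 and 2.11 in SCNT8c and 96.5, 102 and 67.9 in PFF (log2 fold change -2.77 ± 0.90 (SE), adjusted p = 0.03). Its sequence has a copy elsewhere in the genome with 98.3% identity, and its call was lost by edgeR (adjusted p = 0.113), with the same total in each library (limma adjusted p = 0.0844) and without any 1 of the PFF libraries (limma adjusted p = 0.0744 to 0.0974). SAR1B, a GTPase of vesicles that leave the endoplasmic reticulum, was at 114, 175 and 131 and 136, 174 and 136 in the treated groups and at 35.4, 25.5 and 16.7 in PFF (log2 fold change -2.11 ± 0.54 (SE), adjusted p = 0.0119), a call lost by edgeR (adjusted p = 0.08), by DESeq2 (adjusted p = 0.057) and without PFF library 1 (limma adjusted p = 0.0588). KRTCAP2, a subunit of the complex that attaches sugars to proteins, was at 309, 239.8 and 137 and 171, 166 and 217 and under 20 in every PFF library. Both were thus far higher in treated embryos than in the donor cells. DCAF4, a substrate receptor of ubiquitin ligases, was at 127, 151 and 228 in SCNT4c-KG and 115, 169.5 and 87.2 in SCNT4c-TDG, near its PFF values of 95.3, 154 and 167 (log2 fold change -6.11 ± 0.89 (SE), adjusted p = 0.00109). EML4, a microtubule-binding protein, was at 390.4, 141 and 191 in SCNT4c-KG, 123, 102 and 174 in SCNT4c-TDG and 63.5, 107 and 109.7 in PFF (log2 fold change -3.54 ± 0.49 (SE), adjusted p = 0.00091).

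The secreted proteins were STATH and PRAP1, both with no read in PFF. STATH, a calcium-binding protein of saliva, was at 131, 336 and 107 in SCNT4c-KG and 124, 62.1 and 145 in SCNT4c-TDG. PRAP1, a proline-rich protein of gut and uterine epithelium, was at 86.6, 245 and 215 in SCNT4c-KG and 53.5, 52.2 and 196 in SCNT4c-TDG. Each had at least 1 treated library under 100 and a spread of over 2-fold within both groups. The last 3 genes have no role given here. FAM168B was in PFF at 2073, 2129 and 1678, and stood at 480.3, 482 and 235 in SCNT4c-KG, 374, 670.4 and 494 in SCNT4c-TDG and 13.1, 17.5 and 5.28 in SCNT8c (log2 fold change -7.37 ± 0.47 (SE), adjusted p = 4.8e-05). C1H9orf85 was at 333, 272 and 214 in SCNT4c-KG, 169, 189 and 187 in SCNT4c-TDG and 51.3, 34.4 and 63.2 in PFF (log2 fold change -2.67 ± 0.48 (SE), adjusted p = 0.00263). LOC110257896, an uncharacterised RNA on chromosome Y and the only one of the 39 not annotated as protein-coding, was at 1.58, 3.50 and 1.66 in SCNT4c, 108, 327 and 157 in SCNT4c-KG, 126, 116 and 81.1 in SCNT4c-TDG and 285, 245 and 265 in PFF. At 29.9, 30.8 and 20.1 in SCNT8c (log2 fold change -3.27 ± 0.34 (SE), adjusted p = 0.000276) it had the highest SCNT8c level per kilobase of exon among the 39 genes, and a related sequence with 82.8% identity lies on chromosome X.

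Untreated embryos at the later stage had low levels of the 39 gene entries, but some of these were several times the SCNT4c level that the rule had fixed as low. The mean of LOC110257896 was 2.24 in SCNT4c and 26.9 in SCNT8c, that of ACADM 1.94 and 12.3 and that of SAR1B 0.54 and 5.32. For 11 of the 39 genes (28.2%) all 3 SCNT8c libraries lay above all 3 SCNT4c libraries, for none below, and for 28 they overlapped. Of 6965 known genes at or under the SCNT4c limit with a read in either group, 3.14% lay above and 2.23% below. Among the genes that reached 100 in SCNT4c-KG alone, 5 of 66 lay above and 2 below, and among those that reached it in SCNT4c-TDG alone, 0 of 29 lay above and 2 below. Since the SCNT4c libraries were used to choose the genes, this was not tested. The 11 were ACADM, COX7A2, CAD, LOC100517372, C1H9orf85, FAM168B, LOC110257896, SAR1B, UFC1, RARS and DUSP11. Their SCNT8c means ran from 1.29 for UFC1 to 26.9 for LOC110257896. UFC1 had 1, 1 and 2 reads in SCNT8c against 0 in each SCNT4c library, and RARS 2, 3 and 2 against 0, 0 and 1. LOC110257896 had 32, 37 and 19 against 2, 4 and 2. The 6965 genes needed only a single read in either group, and a gene with a single read cannot lie above in all 3 libraries.

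The SCNT4c-TDG and SCNT4c-KG groups reached the same minimum by different amounts. The SCNT4c-TDG mean was the lower of the pair for 25 genes and the higher for 14. With the same total in each library it was the lower for 19, and with quantile normalization for 23, so the majority was lost under 1 of these 2 scalings. As deposited, the values gave a median ratio of SCNT4c-TDG to SCNT4c-KG of 0.807 over the 39 genes and of 0.947 over 5131 known genes with a mean of at least 100 in both. The libraries of the groups overlapped for 24 genes. All SCNT4c-TDG libraries lay below all SCNT4c-KG libraries for 10 of 39, against 33.4% of the 5131 genes, and above for 5, against 28.8%. The 10 were COX7A2 (ratio of means 0.17), ACADM (0.215), RPS15A (0.354), CYBRD1 (0.386), LOC100517372 (0.428), ZNF330 (0.453), FABP1 (0.597), C1H9orf85 (0.665), LOC106510170 (0.687) and ZIM2 (0.762). Among the 5 were PHLDA2 (5.54), RRAS2 (2.26), SLC25A3 (1.47) and GATA6 (1.24). Both groups chose the genes, so these ratios are a description, and the SCNT4c-TDG donor line differed from PFF by transfection and selection. Per kilobase of exon, where levels of different genes can be set side by side, COX7A2 was highest in SCNT4c-KG (1949 normalized units per kilobase), followed by ACADM (626) and SH2D1A (610.4). In SCNT4c-TDG the order was PHLDA2 (994), SH2D1A (410.5) and KRTCAP2 (354), and in PFF it was PHLDA2 (1585), LOC110257896 (297) and FAM168B (274).

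**Figure D4:**
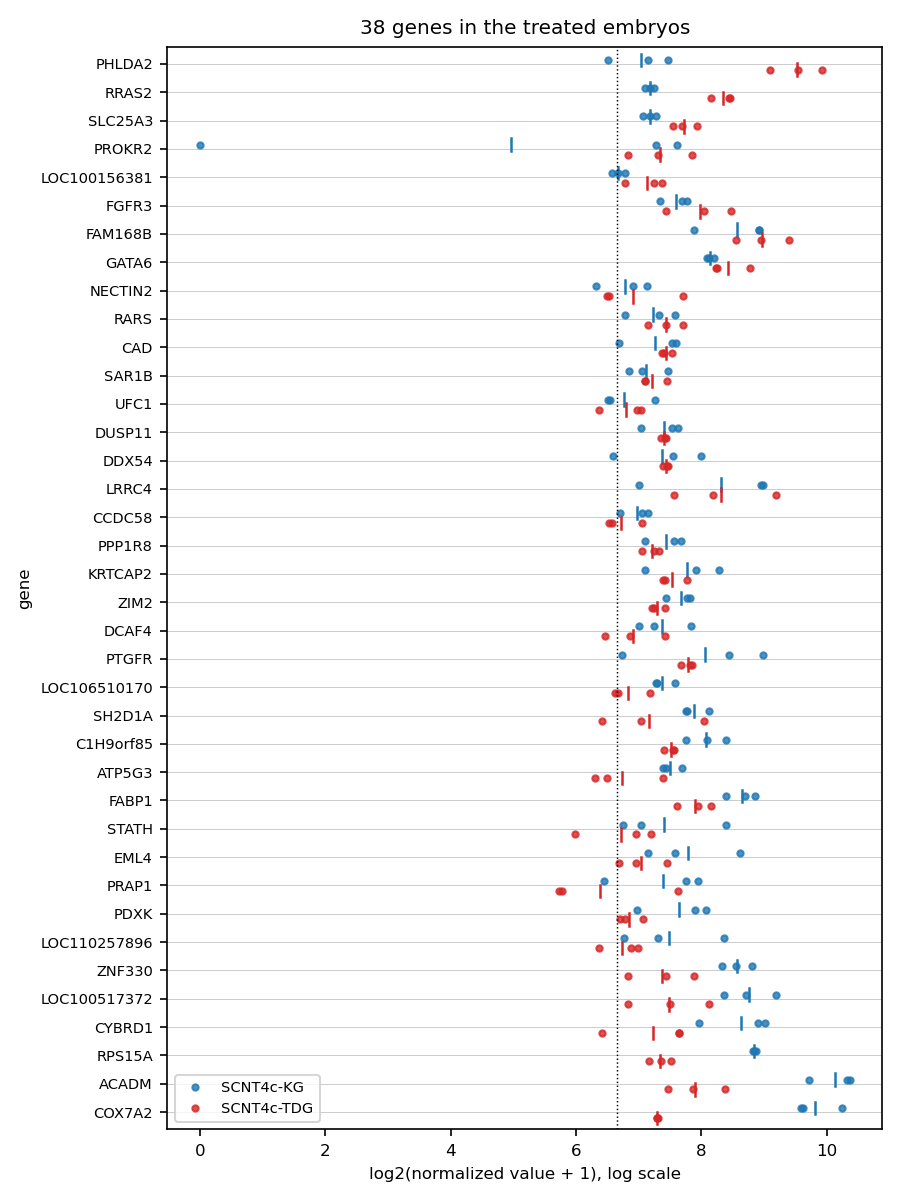
Log2(normalized value + 1) of 38 of the 39 genes in the 3 SCNT4c-KG libraries (blue) and the 3 SCNT4c-TDG libraries (red), ordered by the ratio of the group means, with ticks for the group means of the log2 values and a dotted line at a value of 100. Red lies clear to the right for PHLDA2 and RRAS2 at the top and clear to the left for RPS15A, ACADM and COX7A2 at the bottom.

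A low gene entry did not always mean a locus without RNA. The table also lists transcripts that the authors assembled from the reads, and 30 of the 39 genes share their locus with 1 or more of them, 47 in all. At 16 loci the member was the only known gene, and at 14 the locus held other known genes, so that the source of the assembled transcripts is ambiguous. When gene entry and assembled transcripts were summed, 18 of the 39 loci were still at or under 5 in SCNT4c, 21 were above it and 8 of those reached 100. Among the 18 were ACADM, CYBRD1, DDX54, FABP1, FAM168B, FGFR3, GATA6, LOC100156381, LOC106510170, LOC110257896, PHLDA2, PRAP1, PROKR2, PTGFR, SH2D1A, STATH and UFC1. At the LRRC4 locus, which also holds SND1, the assembled transcript averaged 5937 in SCNT4c, 1482 in SCNT4c-KG and 563 in SCNT4c-TDG. At the ZIM2 locus it averaged 1541, 809.7 and 370.1, so the sums at these 2 loci were lower in both treated groups than in SCNT4c, opposite to the gene entries. The DCAF4 transcript stayed between 327 and 473 in the 3 groups. At the PDXK locus the transcript went the way of the gene entry, from 98.4 in SCNT4c to 959 in SCNT4c-KG and 190.1 in SCNT4c-TDG, and at the NECTIN2 locus from 68.8 to 360.5 and 287. At the COX7A2 locus, shared with FILIP1 and TMEM30A, it was 79.3, 949 and 99.2. For 18 of the 21 loci with sums above 5, the sum was still higher in both treated groups than in SCNT4c, but by a smaller fold than the gene entry. The RPS15A sum was 229 in SCNT4c, 557 in SCNT4c-KG and 248 in SCNT4c-TDG, the PPP1R8 sum 167, 378 and 241, the RARS sum 172, 405 and 278 and the SAR1B sum 111, 224 and 170.2. Sums also changed the comparison of SCNT8c with PFF, where calls were made on gene entries alone. The DCAF4 sum was 933 in SCNT8c and 218 in PFF, the RPS15A sum 455 and 69.1, and the SAR1B sum 85.7 and 39.8. For PDXK it was 50.3 and 25.2 and for RARS 97.4 and 80.3, all opposite to the gene entries. The PPP1R8 sums were 143 and 149. At other loci the sum stayed lower in SCNT8c, as for SLC25A3 at 13.2 and 280. The gene entry was low in SCNT4c for all 39 genes, and the whole locus for 18. Whether the counting used strand is not given in the sources used here, so reads of overlapping or antisense genes cannot be told apart.

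**Figure D5:**
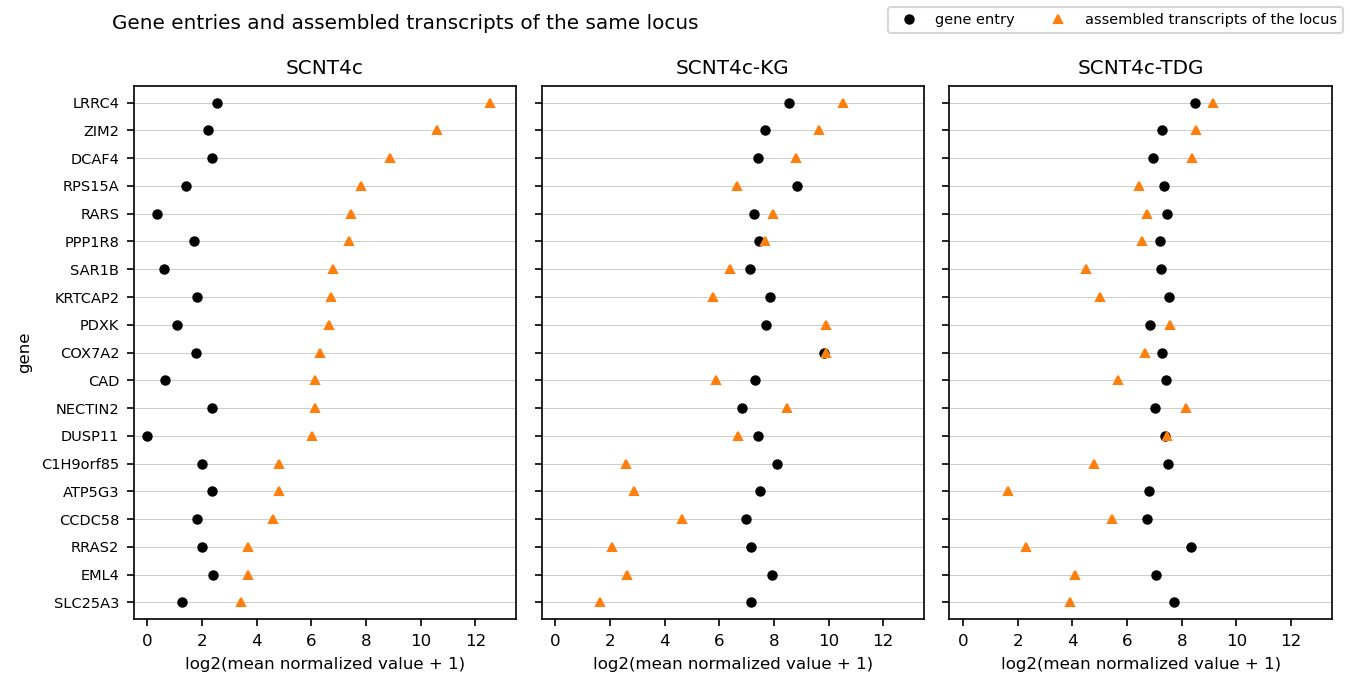
Mean normalized value, as log2(mean + 1), of the gene entry (black circles) and of the assembled transcripts of the same locus summed (orange triangles) in SCNT4c, SCNT4c-KG and SCNT4c-TDG, for the 19 genes whose assembled transcripts exceeded 5 in SCNT4c. In SCNT4c every triangle lies to the right of its circle, and in SCNT4c-TDG circles lie at or to the right of triangles for all but LRRC4, ZIM2, DCAF4, PDXK, NECTIN2 and DUSP11.

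The longest annotated transcript of each gene was also aligned to the genome to find near copies that could take or lend reads. For 33 of the 39 genes no copy was found. RRAS2 had a copy with 91.8% identity, CCDC58 1 with 91.0% over part of its length, and RPS15A 2, the closer with 97.0%, over part of its length. LOC100156381, LOC106510170 (92.3%) and LOC110257896 had 1 each. Only uniquely mapped reads were counted, so values of these 6 genes are uncertain.

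The 39 genes lie on 17 chromosomes, with 6 on chromosome 6, 5 on chromosome 3 and 4 on chromosome 13. No pair lies within 100 kb of each other, and the closest, PTGFR (chr6:134727334-134777067) and ACADM (chr6:137541481-137575544), are 2764414 bases apart. GATA6 lies at chr6:107282709-107314725, PHLDA2 at chr2:2057679-2058675, COX7A2 at chr1:90696746-90703407 and RPS15A at chr3:26776661-26783491. The median gene length was 17628 bases against 20605 for protein-coding genes, the median exon length 2219 against 3187 bases, and the median number of exons in the longest transcript 6 against 8.

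Pathways and families to which members belong were set beside all features tested in the same comparison, of which 33.7% were higher and 36.8% lower in SCNT8c. Of 18 tested genes of fatty acid beta-oxidation, the pathway of ACADM, 0 were higher and 6 lower in SCNT8c, and 12 did not pass. Of 39 tested oxidative phosphorylation genes, 5 were higher and 15 lower, and 19 did not pass. COX7A2 is on that list but was not tested, and ATP5G3 is not on the list under this symbol. Of 8 tested trophectoderm and hypoblast genes, with GATA6, 4 were higher and 3 lower. Among families taken by their symbols, 29 of 230 tested zinc finger genes were higher and 123 lower, 45 of 213 solute carriers higher and 116 lower, and 5 of 86 cytosolic ribosomal proteins higher and 65 lower. Of 2597 tested loci with only a LOC symbol, which include the LOC members other than LOC106510170, 1132 were higher and 563 lower. The median log2 fold change was -0.96 for fatty acid oxidation, -0.48 for oxidative phosphorylation, 3.43 for trophectoderm and hypoblast, -2.11 for zinc finger genes, -1.97 for solute carriers, -2.39 for ribosomal proteins and 1.69 for LOC loci, beside -0.15 over all features.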

How the data were processed

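The analysis used 15 RNA-seq libraries, 3 each of SCNT4c, SCNT4c-KG, SCNT4c-TDG, SCNT8c and PFF. According to the methods of the study and the submitters' processing notes, the authors trimmed reads (Trimmomatic 0.39), mapped them to Sscrofa11.1 and kept unique hits (STAR 2.5.3a), assembled transcripts (StringTie 2.1.2) and counted reads on each feature (HTSeq). The deposited values are a normalized signal, in which the counts of a library share 1 divisor. Its source, the strand setting and any sequencing batch are not given in the sources used here. In every library all values lay within 0.01 of a whole multiple of the value of 1 read, so reads could be recovered. Of 43535 entries, 241 repeated a gene ID and were dropped. The labels conflict: descriptions of samples titled SCNT4c-KG match the SCNT4c column names, and samples titled SCNT4c have other descriptions. Columns were assigned by title, and the SCNT4c libraries, with no agreed number, are called a, b and c.

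A gene was a member if its group means were at most 5 in SCNT4c and at least 100 in SCNT4c-KG and SCNT4c-TDG. The members, the limits and the gene lists were chosen with earlier results of these data known. The values of 1 member, which is included in all counts, are not reported here. The role groups were assigned after the members were known, and the genes just outside each limit are the 2 nearest. SCNT8c was compared with PFF by limma 3.58.1 (R 4.3.3) on log2(value + 1) with an intensity trend, over features with a mean of at least 10 in the 6 libraries. Calls required a Benjamini-Hochberg adjusted p under 0.05 with a fold above 2. Alternatives were other pseudocounts, minimum means and scalings, edgeR 4.0.16 and DESeq2 1.42.0 on recovered reads, a fit of all 15 libraries, no fold limit, a replicate block and each library left out. Same-numbered PFF and SCNT8c libraries did not deviate together (correlations -0.02 to 0.01), so numbers were not treated as pairs. Near copies were sought with minimap2. Genes, exons and the 250 bases before each start were taken from RefSeq Sscrofa11.1.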

Additional observations from a re-analysis of the deposited data

How the results depend on the processing

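The number of genes that met the rule depended on the limits. It was 14 with a limit of 2 in SCNT4c and 74 with a limit of 10, 81 with a minimum of 50 in the treated groups and 6 with a minimum of 200, 17 when every library had to meet the rule, and 18 when gene entries were summed with the assembled transcripts of the locus. It was 41 with the same total in each library and 58 with quantile normalization (38 and 39 of the 39 genes among them), and 34 to 44 with 1 library left out. The count of members lower in SCNT8c than in PFF was 26, with 17 at a minimum mean of 50, where only 17 members were tested, and 23 to 27 with 1 library left out. The count of members higher in SCNT8c was 1, with 6 for all features above 0, 0 at a minimum mean of 50, 0 in a fit of all 15 libraries and 0 to 1 with 1 library left out. With 1 library left out, the count of members at 5 or less in SCNT8c was 18 to 22, in PFF 8 to 9, the count at 100 or more 0 in SCNT8c and 14 to 15 in PFF, and the SCNT4c-TDG mean was below the SCNT4c-KG mean for 24 to 27 members (25 with all libraries, 19 with the same total in each library and 23 with quantile normalization). The replicate block changed no call of a member (26 lower and 1 higher), and with correlations from -0.02 to 0.01 the numbers are only names. Of the fold changes of single members under all alternatives, 443 kept their direction and call, 17 lost the call, 2 gained it and none reversed. The cause of these shifts was not tested, apart from limits that admit more or fewer genes by construction. SCNT4c values rest on at most 18 reads a gene, as the limit of 5 implies, so ratios to SCNT4c carry a large counting error.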

Other observations

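Among 15070 assembled transcripts without a gene name, 5 met the same limits as the 39 genes, with means of at most 5 in SCNT4c and at least 100 in both treated groups. Of these, 4 shared a locus with a known gene and 1 stood alone, and none lay at the locus of 1 of the 39 genes. Their highest SCNT8c mean was 18.1, and 1 of them had a PFF mean of at least 100. In the other direction, of 6018 known genes with a mean of at least 100 in SCNT4c, 2 had means of at most 5 in both treated groups.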
